A study of Mus musculus with 38 samples.

Results

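The response of JGES cells to BMP4 on day 7 was read from a pair of bulk RNA-seq libraries, 1 made with BMP4 (BMP4+) and 1 without (BMP4-), out of the 38 samples of the series. The members are genes. The table of FPKM (fragments per kilobase of exon, scaled to the mapped fragments of the library) lists 35976 genes, and 34462 were kept after 1482 short RNAs and the 32 genes of the primitive endoderm (PrE) and pluripotency lists had been set aside. Other genes of pluripotent cells and of endoderm are on neither list and stay among the members. JGES stands for retroviral *Jdp2*, *Glis1*, *Esrrb* and *Sall4*, delivered to fibroblasts of E13.5 mouse embryos (MEFs) that carry an *Oct4*-GFP reporter. Both groups were grown in iCD3 medium with CHIR99021 (an inhibitor of GSK3 that turns on WNT signaling), mLIF, bFGF, Y27632, Vitamin C, SGC0946, TV and LSD1-HCL, and the BMP4+ group had BMP4 at 10 ng/ml for 7 days besides. No sort of the cells is stated, so each library is taken as a mixture of cells, and in such libraries fewer cells of a type and less RNA per cell cannot be told apart. There was 1 library a side and no replicate, so the conditions could not be tested. Every difference is that between those libraries.

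BMP4 is a secreted ligand of the TGF-b superfamily. It binds receptor kinases that phosphorylate SMAD1, SMAD5 and SMAD9, which enter the nucleus with SMAD4 and switch on a set of direct targets, among them the *Id* genes, the *Msx* and *Dlx* homeobox genes and the inhibitory SMADs *Smad6* and *Smad7* that damp the signal. In the mouse embryo BMP signals pattern the extra-embryonic tissues and mesoderm, favor epidermis over neural tissue, and drive bone formation.

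The promoters of 3 of these direct targets and of 4 of the genes with the largest differences are printed to show the sequence before them, although *Id2* did not pass the mark for a higher gene used below. They are RefSeq sequences of build GRCm38.p6, read 5′ to 3′ on the gene's own strand and ending 1 base before the annotated start. For the targets *Id2*, *Id4* and *Smad9*, 250 bases are given, with GGCGCC in capitals, a GC-rich palindrome known as a binding sequence of BMP-activated SMADs.
*Id2* (chr12:25096093-25096342, minus strand): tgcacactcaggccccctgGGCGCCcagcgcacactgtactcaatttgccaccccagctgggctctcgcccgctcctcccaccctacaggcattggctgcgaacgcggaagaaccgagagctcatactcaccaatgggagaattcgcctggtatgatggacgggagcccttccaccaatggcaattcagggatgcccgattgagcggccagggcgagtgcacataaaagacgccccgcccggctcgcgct
*Id4* (chr13:48260866-48261115, plus strand): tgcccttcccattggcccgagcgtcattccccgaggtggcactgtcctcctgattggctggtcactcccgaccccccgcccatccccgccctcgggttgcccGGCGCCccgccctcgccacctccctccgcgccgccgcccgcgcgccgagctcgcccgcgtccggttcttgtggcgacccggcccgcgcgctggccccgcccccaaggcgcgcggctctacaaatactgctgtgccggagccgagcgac
*Smad9* (chr3:54755332-54755581, plus strand): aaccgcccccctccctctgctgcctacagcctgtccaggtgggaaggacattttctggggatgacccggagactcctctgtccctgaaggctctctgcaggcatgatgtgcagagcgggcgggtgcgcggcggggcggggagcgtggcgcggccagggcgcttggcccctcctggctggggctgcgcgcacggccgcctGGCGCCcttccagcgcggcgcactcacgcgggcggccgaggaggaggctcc
For *Ibsp*, *Prr9*, *Gpr165* and *Postn*, 4 of the 12 largest rises, 100 bases are given with TATAAA, the letters of a TATA box, in capitals. In *Ibsp* the match lies on the other strand and so reads TTTATA.
*Ibsp* (chr5:104299187-104299286, plus strand): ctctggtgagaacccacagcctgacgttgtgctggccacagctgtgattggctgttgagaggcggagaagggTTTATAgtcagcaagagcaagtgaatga
*Prr9* (chr3:92123948-92124047, minus strand): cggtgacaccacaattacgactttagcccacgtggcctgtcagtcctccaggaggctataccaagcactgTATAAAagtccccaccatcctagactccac
*Gpr165* (chrX:96713368-96713467, plus strand): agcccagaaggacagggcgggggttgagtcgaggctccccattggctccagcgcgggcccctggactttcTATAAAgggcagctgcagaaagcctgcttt
*Postn* (chr3:54361007-54361106, plus strand): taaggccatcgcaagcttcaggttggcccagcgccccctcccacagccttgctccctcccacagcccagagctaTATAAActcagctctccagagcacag
The match began 28 bases before the start in *Ibsp*, 30 in *Prr9* and *Gpr165*, and 26 in *Postn*. In the 250 bases before the start, searched on both strands, GGCGCC was present in 5 of the 10 BMP-SMAD targets that had a promoter in the RefSeq table (*Gata2*, *Gata3*, *Id2*, *Id4* and *Smad9*), against 21% of the 7469 measured genes with an FPKM of at least 5 and 10.8% of all 27025 genes of the table. It was not more frequent among the genes that stood higher with BMP4, at 17.3% of 611. TATAAA was found before 12.1% of the genes that stood higher, 8.73% of those that stood lower and 7.42% of the measured genes, against 14.3% of the whole table. The AP-1 letters TGAGTCA were found before 6.71% of the higher, 2.86% of the lower and 3.48% of the measured genes (5.16% of the table), and the E-box CACGTG before 8.84%, 9.28% and 10.4% (6.86%). The 8-base SMAD4 palindrome GTCTAGAC was present before 1 of 611 higher, 2 of 733 lower and 15 of 7469 measured genes, or 0.2% of the table. None of the 5 motifs holds another. These are matches of letters, not binding sites.

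The depth of both libraries was low. For genes with a single annotated transcript, FPKM multiplied by transcript length fell on repeated steps, the commonest of 0.762 in the BMP4- library and 0.702 in the BMP4+ library, with a second step at 0.381 and 0.351. Of the low values, 76.2% and 76.8% lay within 0.05 of a whole multiple of the second step. If a full step is 1 read pair, the libraries held about 1310000 and 1430000 mapped pairs, against 7140000 to 9890000 for the JGE, JGEO and JGESO libraries. A gene at 1 FPKM then rests on few read pairs, and differences of weakly expressed genes carry a large counting error. The labels were checked against the delivered genes. *Sall4* had 280 FPKM (BMP4-) and 194 FPKM (BMP4+), *Esrrb* 171 and 128, and *Jdp2* 234 and 259, while *Glis1* was listed at 0 and 1.13 and did not pass 1.13 in any JGES library. Macrophage markers were at or near 0 in both libraries (0 and 1 of 6 at 1 FPKM or more). The fibroblast markers summed to 70.5 FPKM without and 674 with BMP4 and the keratinocyte markers to 2.58 and 91.1, and the pluripotent markers to 815 and 28.3. The part of these markers, and of the low depth, in the differences below was not tested.

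With a difference of at least 1 on the scale of log2(FPKM + 1), about a doubling for well expressed genes, 1458 of the 14908 genes that reached 1 FPKM on at least 1 side stood higher with BMP4 (9.78%) and 1958 stood lower (13.1%). With an FPKM of at least 5, where the counting error is smaller, 866 of 9895 genes were higher (8.75%) and 1018 lower (10.3%). The median gene stood slightly lower, at -0.13, and scaling the libraries to a common median moved it to -0.02, so list medians are to be read against -0.13. Of the genes called higher, 363 were listed at 0 without BMP4, and of those called lower, 581 were listed at 0 with it.

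**Figure D1:**
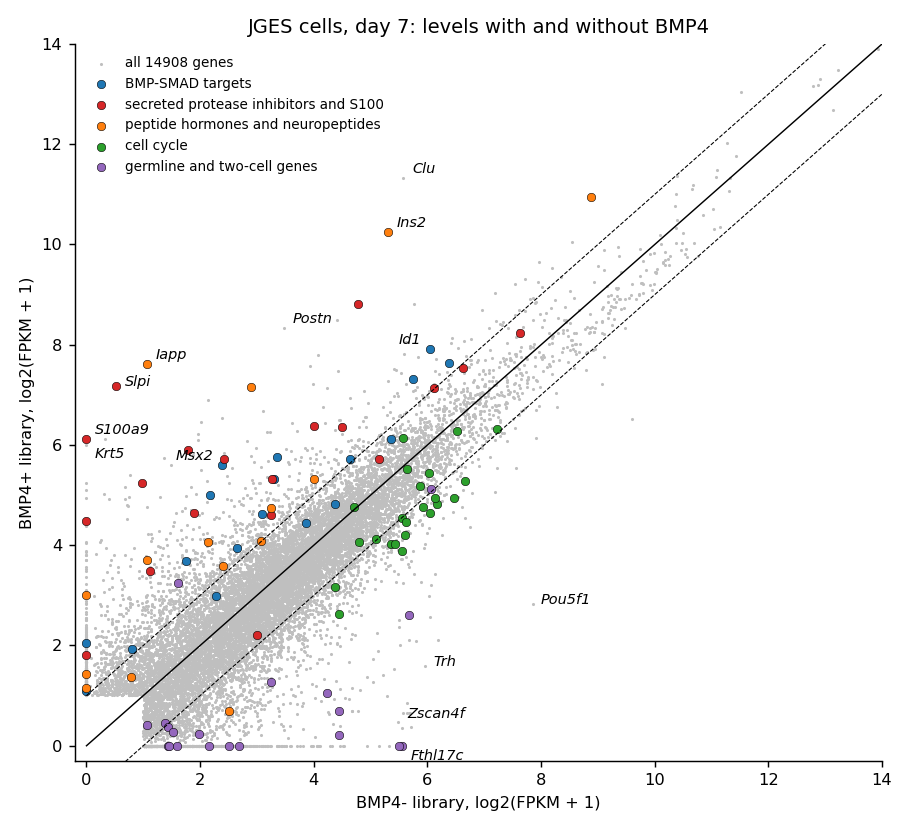
Level of each of 14908 genes in the BMP4- library (x axis) and the BMP4+ library (y axis), both as log2(FPKM + 1), with 5 gene lists in color, equality as a solid line and differences of 1 and -1 as dashed lines. *Iapp*, *Slpi*, *S100a9* and *Krt5* lie far above the line from levels of 1.09 FPKM or less, and many germline genes lie low on the plot.

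The 12 largest rises are given first. *Slpi*, a secreted inhibitor of leukocyte proteases (chr2:164354070-164389095, mm10), had 0.435 FPKM without and 143 FPKM with BMP4, about 0.5 and 178.5 read pairs. *Iapp*, the islet hormone amylin (chr6:142298423-142303961), had 1.09 and 194 FPKM. *S100a9*, a calcium-binding protein of neutrophils and inflamed epithelium, was listed at 0 and 68.3. These 3 genes were all but silent in the BMP4- library and among the well expressed genes of the BMP4+ library. *Krt5*, the keratin of basal epidermal cells (chr15:101707070-101712898), was listed at 0 and 63.0 FPKM. *Igfbp1*, which binds insulin-like growth factors, had 0.251 and 68.6 FPKM. The next genes were already on without BMP4. *Clu*, a secreted chaperone, had 46.8 and 2555 FPKM, *Ins2*, an insulin gene, 38.6 and 1211 FPKM, and *Postn*, a matrix protein of mesenchyme, 10.1 and 321 FPKM. *Ibsp*, a sialoprotein of bone matrix, *Prr9*, a proline-rich gene of the epidermal differentiation cluster, and *Tuba8*, an alpha-tubulin, were listed at 0 without BMP4 and at 33.4, 37.1 and 29.6 FPKM with it, and *Gpr165*, an orphan receptor, had 0.239 and 31.3.

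Among the 12 largest falls, 7 belong to germline and 2-cell embryo genes with near-identical copies, whose reads the counting may have split or shared, so their single values are uncertain. They are *Fthl17c* (45.7 FPKM, then 0 in the BMP4+ library), *Fthl17b* (38.9 and 0), *Fthl17d* (21.8 and 0), *Zscan4f* (44.0 and 0.384), *Zscan4c* (20.8 and 0.154), *Zscan4b* (16.1 and 0) and *Rpl10l* (34.6 and 0), a testis copy of a ribosomal protein gene. *Pou5f1*, which encodes OCT4 and was not on the pluripotency list set aside, had 230 and 6.08 FPKM. *Trh*, the precursor of thyrotropin-releasing hormone, had 60.8 and 2.03. *Lncenc1*, a long non-coding RNA of naive stem cells, had 38.3 and 0.990, *Tcf15*, a bHLH factor of paraxial mesoderm and of cells leaving pluripotency, 18.4 and 0, and *Hba-a1*, an alpha-globin gene with a near-identical neighbour, 16.4 and 0.

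The direct targets of the signal stood higher as a group. Of 18 BMP-SMAD targets, 14 stood at least 1 higher and none lower, against 9.78% of all genes higher, and their median difference was 1.42. Among the 14, *Dlx5*, *Hand1* and *Smad9* passed the filter of 1 FPKM only through the BMP4+ library, at low levels. They could count only as higher or as not past the mark, so the count higher is in part a result of the filter. *Id1*, named here after its values were seen, had 65.0 and 240 FPKM, *Id3* 82.8 and 199, and *Id2* 40.1 and 68.4, which is below a difference of 1. ID proteins hold bHLH factors away from DNA. The homeobox gene *Msx2* had 4.23 and 47.4 FPKM and *Dlx3* 52.9 and 158. *Gata2*, a factor of blood, endothelial and trophoblast lineages, had 3.5 and 31.1, and *Gata3* 2.39 and 11.8. The inhibitors were higher too, *Smad6* at 9.27 and 53.2 FPKM and the decoy receptor *Bambi* at 8.84 and 38.8. The median of this list was already 1.53 on day 1, 1.65 on day 3 and 1.60 on day 5, close to its day 7 value on each day. *Id1* stood at 78.1 and 293 FPKM on day 1 and *Smad6* at 9.96 and 58.0.

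Ligands, receptors and antagonists differed less. Of 13 ligands and receptors 3 were higher and 1 lower, against 9.78% and 13.1% of all genes (median 0.39). *Bmp2* had 1.18 and 9.25 FPKM and the endothelial type I receptor *Acvrl1* 1.71 and 9.17, while the type II receptor *Acvr2b* had 9.78 and 2.77. *Bmp4* itself had 23.8 and 31.4. Of 9 antagonists 3 were higher, among them *Fst* (1.20 and 4.91) and *Grem1* (1.29 and 5.13), and 1 was lower, *Sost*, at 24.5 and 3.68.

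Other signaling pathways divided between ligands and targets. In the WNT list, 9 of 20 genes were higher and 2 lower, against 9.78% and 13.1% of all genes. The same shares apply to the lists that follow. The secreted inhibitor *Dkk1* had 2.89 and 73.5 FPKM and the ligands *Wnt4* 1.10 and 26.2, *Wnt7b* 1.21 and 15.9 and *Wnt6* 68.9 and 176. *Sp5*, a target of beta-catenin, went the other way with 44.5 and 4.68, as did *Sfrp2* with 17.3 and 3.09, and *Axin2*, another target, had 17.1 and 24.1. In the TGF-b and activin list, 4 of 12 genes were higher and 3 lower. The ligand *Tgfb1* had 17.0 and 107 FPKM, whereas the NODAL inhibitors *Lefty1* (5.46 and 0.437) and *Lefty2* (12.2 and 1.27) and *Nodal* itself (4.91 and 1.51) were lower. In the FGF and ERK list, 6 of 15 genes were lower and 2 higher (median -0.57). The lower ones were the ERK-responsive factors *Etv5* (61.0 and 15.3) and *Etv4* (39.8 and 11.2), the feedback phosphatase *Dusp4* (44.0 and 17.2), *Spry2*, *Fgf8* and *Fgf17*, and the higher ones the receptors *Fgfr1* (26.3 and 67.5) and *Fgfr3*. In the Notch list 2 of 12 genes were higher, *Dll4* (1.77 and 17.9) and *Heyl* (0 and 1.01). In the hedgehog list 1 of 6 was, *Ihh* (2.25 and 9.44). These counts are small and not far from the 9.78% of all genes. Of 11 retinoic acid genes 4 were higher and 2 lower, against 9.78% and 13.1% of all genes. Among them were the RA-degrading *Cyp26a1* at 7.18 and 36.8 and *Crabp2* at 37.3 and 14.8.

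Keratinocyte genes stood higher as a list, while genes of simple epithelium went both ways. Of 14 measured genes of keratinocytes and stratified epithelium, 10 were higher and none lower (median 1.84), against 9.78% and 13.1% of all genes. Genes listed at 0 without BMP4, such as *Krt14* and *Ivl*, passed the filter only through the BMP4+ library. Beside *Krt5*, its partner *Krt14* (0 and 4.69), the cornified envelope protein *Ivl* (0 and 4.87), *Lor* (1.07 and 6.31) and *Sfn* (2.36 and 17.0) were higher, but at levels far under that of *Krt5*, and *Trp63*, the master factor of basal keratinocytes, did not reach 1 FPKM in either library. With no filter on low values, or with only genes of at least 20 estimated read pairs, the median of this list was 1.00. Of 21 genes of simple epithelium, 9 were higher and 2 lower (median 0.48), and 11 stood above 0 and 10 below it. *Krt8* had 8.02 and 75.6 FPKM, *Krt18* 48.2 and 148, *Krt19* 38.5 and 154 and the tight junction gene *Cldn6* 17.3 and 85.5, while the adhesion gene *Epcam* had 40.1 and 18.0 and *Tjp3* 5.57 and 1.47. *Cdh1*, encoding E-cadherin, had 43.9 and 27.6, so keratins and junction genes did not move as 1 group.

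Many genes of secreted proteins and hormones were higher. Of 19 measured protease inhibitors and S100 genes, 15 were higher and none lower, against 9.78% and 13.1% of all genes. Their median of 2.36 was the highest of the 38 lists with at least 8 measured genes. *S100a6* had 26.5 and 447 FPKM, *S100a4* 2.43 and 58.8, *S100a8*, the partner of *S100a9*, 0.972 and 36.7, *Anxa1* 4.37 and 51.8, and *Serpinb2* was listed at 0 and 21.3. Of the 15, *Slpi*, *S100a8*, *S100a9* and *Serpinb2* are among those that passed the filter of 1 FPKM only through the BMP4+ library. The count higher is thus in part a result of the filter. *Slpi* and *S100a9* are also among the 12 largest rises, so the rank of this list is not separate from them. Of 24 peptide hormone genes 15 reached 1 FPKM on at least 1 side. Of these 13 were higher and 1, *Npy*, lower (4.71 and 0.620), with a median of 1.49. *Ins1*, *Nppa* and *Nts*, listed at 0 without BMP4, passed this filter only through the BMP4+ library, which makes the count higher in part a result of the filter. *Pyy*, a gut hormone, had 6.48 and 142 FPKM, *Ins1* 0 and 7.01, *Gal* 1.09 and 12, and *Igf2*, a fetal growth factor, 470 and 1978. The cytokine *Il11* had 0.188 and 16.3, while the chemokine *Cxcl12* had 6.92 and 2.06.

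Genes that visceral endoderm secretes or absorbs with were higher as well. Of 14, 11 were higher and none lower, against 9.78% and 13.1% of all genes, with a median of 1.59. *Ttr*, the thyroxine carrier, had 1.56 and 52.3 FPKM, *Apoa4* 0 and 7.58, *Spink1* 2.71 and 24.1, *Trf* 2.94 and 19.7, *Afp* 0.365 and 3.70 and the factor *Hnf4a* 0.810 and 4.03. All 14 genes passed the filter of 1 FPKM, but *Apoa4*, *Afp* and *Hnf4a* did so only through the BMP4+ library. Such genes could only count as higher or as not past the mark. In the parietal endoderm basement membrane list 4 of 11 were higher and none lower (median 0.93), with *Sparc* at 248 and 805 and the laminin binder *Nid1* at 43.7 and 126. In the trophoblast list 6 of the 14 genes that reached 1 FPKM, out of 20, were higher and 2 lower. The share lower is near the 13.1% of all genes. The imprinted gene *Phlda2* had 2.81 and 31.7 and *Peg10* 293 and 736, whereas the stem cell factors *Tfap2c* (13.5 and 1.89) and *Cdx2* (3.73 and 1.31) were lower and *Elf5* was at 0 in both libraries.

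Fibroblast matrix was higher in 15 of 21 genes and lower in none (median 1.83). Of all genes 9.78% were higher and 13.1% lower, the shares for each list of this paragraph. *Col1a1* had 20.2 and 361 FPKM, *Col1a2* 15.8 and 220, *Col6a3* 1.23 and 16.6 and *Dcn* 0.543 and 7.00. At day 0 *Col1a1* stood at 524 FPKM. It fell in the BMP4- libraries to 72.7, 19.4 and 12.1 on days 1, 3 and 5, and stood at 67.8, 111 and 168 in the BMP4+ libraries. Its day 7 level was nearer to that of day 0 with BMP4 than without, whereas *Postn* (56.7 at day 0) and *Dcn* (1.12 at day 0) stood above their day 0 level with BMP4 and were nearer to it without. Factors of mesenchyme did not follow the matrix. Of 19, 5 were higher and 3 lower (median 0.13), the share lower being near the 13.1% of all genes. *Prrx2* had 1.81 and 47.4, *Snai2* 12.3 and 32.9 and *Meox1* 33.8 and 2.7. In the bone and cartilage list 7 of the 12 genes that reached 1 FPKM were higher and 2 lower. *Ibsp*, *Dmp1* and *Mgp* reached it with BMP4 alone, and the median of 1.16 was 0.45 with no filter on low values. The osteoblast factor *Sp7* had 1.51 and 12.9, *Spp1* 146 and 352 and alkaline phosphatase *Alpl* 64.0 and 133, while the cartilage genes *Col2a1* (12.1 and 5.26) and *Matn3* (1.52 and 0) were lower and *Acan* and *Col10a1* did not reach 1 FPKM. Of 12 contractile genes 4 were higher and none lower. Of 17 endothelial genes 6 were higher, among them the VEGF receptor *Flt1* (1.07 and 12.8). The 2 lower ones, *Etv2* (6.01 and 1.92) and *Robo4* (1.61 and 0.262), make a share near the 13.1% of all genes.

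The transcription factor AP-1 was higher in 5 of 10 genes and lower in none, at *Junb* 29.0 and 93.1 FPKM, *Jun* 28.1 and 66.8, *Fos* 4.73 and 13.2, *Fosl1* 2.91 and 8.03 and *Fosl2* 2.14 and 8.44. JUN and FOS proteins pair to form this factor. Over all genes 9.78% were higher and 13.1% lower, the shares for each list of this paragraph. Of 15 genes of p53 and senescence, 2 were higher, a share near the 9.78% of all genes. They were the cell cycle inhibitors *Cdkn2a* (25.5 and 62.7) and *Cdkn1a* (160 and 348). Of 16 stress genes, *Hspa1a*, *Hspa1b* and *Hmox1* (41.3 and 126) were higher and *Asns* (96.1 and 26.2) lower, small counts not far from the shares of all genes. Of 15 interferon-stimulated genes 3 were higher and 1 lower, not far from the shares of all genes (9.78% and 13.1%). Of 15 imprinted genes 4 were higher and none lower, with *H19* at 2917 and 8463 and *Gnas*, *Dlk1* and *Igf2* beside it.

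**Figure D2:**
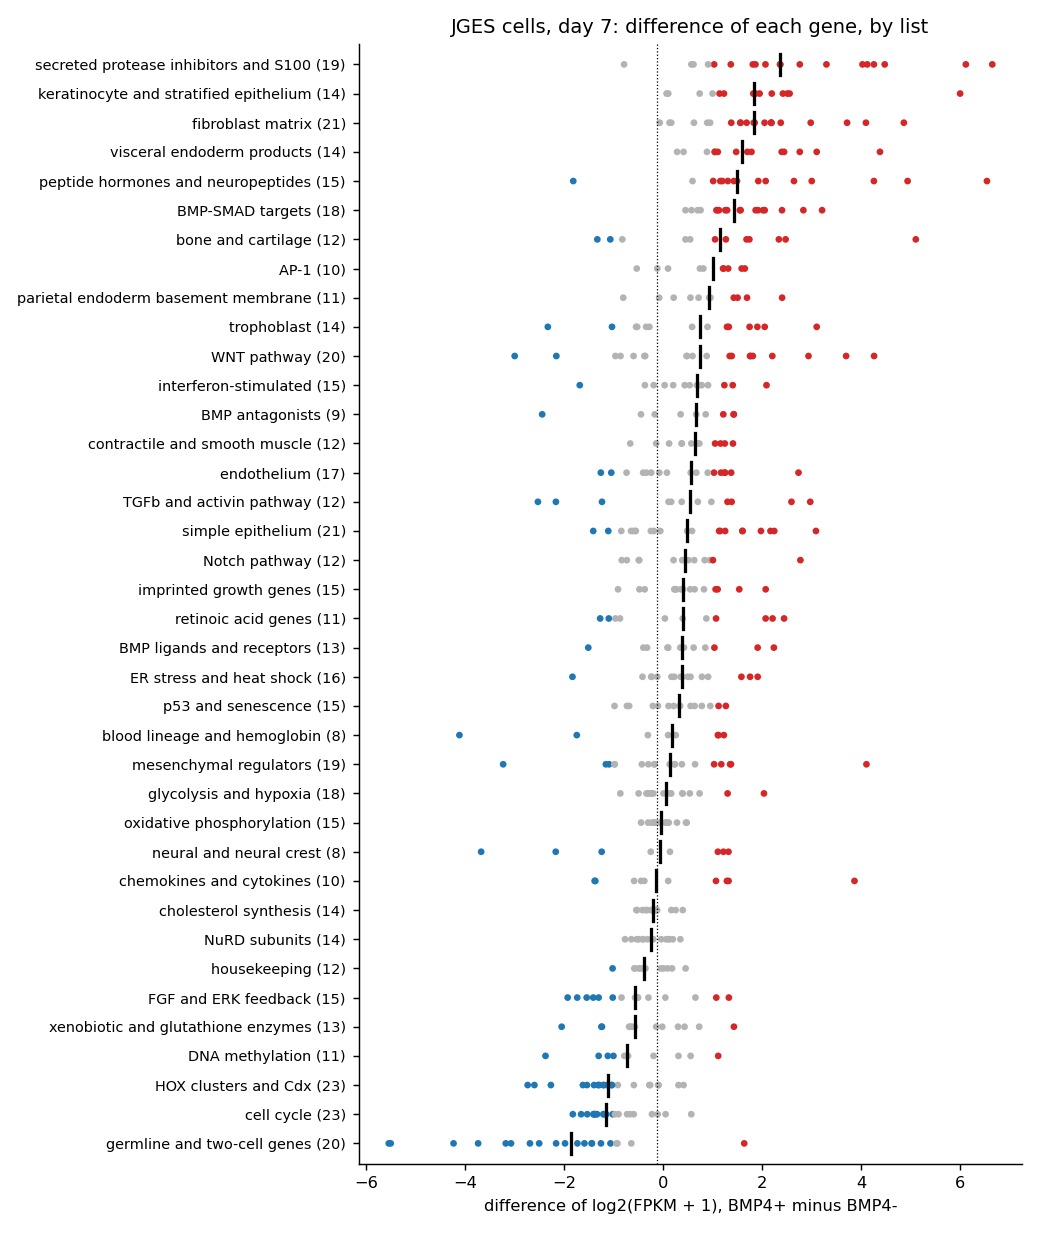
Difference of log2(FPKM + 1) between the BMP4+ and BMP4- libraries on day 7 (x axis) for each measured gene of 38 lists (y axis, number of genes in brackets), with list medians as black bars, differences of at least 1 in red, of at most -1 in blue, and the median of all genes as a dotted line. Protease inhibitors and S100 genes have the highest median, 2.36, and germline and 2-cell genes the lowest, -1.86.

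Proliferation, axial patterning and germline genes were lower with BMP4. None of 23 cell cycle genes was higher and 14 were lower, against 13.1% of all genes lower, with a median of -1.16. The mitotic checkpoint kinase *Bub1* had 20.9 and 5.17 FPKM, the replication helicase subunit *Mcm6* 45.9 and 13.9 and *Cdc20* 88.0 and 29.7. Only *Ccnd1* (46.7 and 69.6) and *Ccne1* of the list stood above 0. Of 23 *Hox* and *Cdx* genes, 15 were lower and none higher (median -1.13). *Hoxb13* had 11 and 0.802, *Hoxa5* 5.07 and 0 and *Cdx4* 3.82 and 0, all at low levels. These genes, too, reached 1 FPKM only in the BMP4- library. Of 20 germline and 2-cell genes, 16 were lower and 1, *Sycp3* (2.04 and 8.44), higher (median -1.86). The filter of 1 FPKM kept 20 of the 21 genes of this list. Most of the lower ones, such as *Dazl* and *Fthl17c*, passed it only through the BMP4- library. Such genes could only count as lower or as not past the mark. *Sycp3* rests on about 3 and 13.5 read pairs and was lower in the single cells, at 2.74 and 0.672 CPM. The germ cell RNA-binding protein *Dazl* had 20.6 and 0.620, *Xlr3a* 17.7 and 1.07 and *Trap1a* 50.1 and 5.06. Of 11 DNA methylation genes 4 were lower, *Tet1* (14.3 and 1.94), *Uhrf1* (79.3 and 31.5), *Dnmt1* (47.5 and 21.3) and *Tet2* (11.9 and 5.42), and *Gadd45b* (12 and 27.2) was higher.

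In several groups few or no genes passed the mark. None of 14 subunits of NuRD, the deacetylase complex that SALL4 recruits, differed by 1 or more (median -0.26, from -0.77 to 0.35). The same held for 14 genes of cholesterol synthesis (median -0.21) and 15 of oxidative phosphorylation (median -0.04), and for 11 of 12 housekeeping genes, where *Rps18* (483 and 237) passed -1. With the libraries scaled to a common median, *Rps18*, *Tet2*, *Epcam*, *Cdx2* and *Col2a1*, given above as lower, no longer passed -1. Of 18 genes of glycolysis and hypoxia, *Ndrg1* (21.1 and 89.6) and *Egln3* (38.2 and 95.5) were higher, although *Egln3* was lower in the single cells, at 39.1 and 18.2 CPM. The share higher in this list is near the 9.78% of all genes. Of 13 xenobiotic and glutathione enzymes 3 were lower, with *Gstm1* at 75.3 and 17.4, and *Gsta1* was higher, against 13.1% and 9.78% of all genes, and the median of this list was -0.57.

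The groups parted at different times. *Msx2* and *Dkk1* differed from day 1, at 0.601 and 4.69 FPKM and at 2.03 and 8.57. *Krt5* had 2.08 and 1.44 FPKM on day 1, 0.474 and 14.2 on day 3 and 0 and 83.6 on day 5. *Slpi* was listed at 0 in every BMP4- library before day 7, and at 0, 0.407 and 11.2 in the BMP4+ libraries. *Ttr* (5.16 and 9.16 on day 5) and *Igfbp1* (0 and 0 on day 5) differed less on day 5 than on day 7. *Dazl* was at 0 in both libraries through day 3 and had 1.30 and 0.206 on day 5, so it was low in both groups until its level without BMP4 went up late. Over all genes, 662 of the 1189 genes called higher on day 7 and measured on day 5 were also at least 1 higher there (55.7%), against 8.36% of all genes of that day, and 38 were at least 1 lower (3.2%, against 12.4%). They made up 62.7% of the 1055 genes called higher on day 5 that were also measured on day 7. The counts were 356 of 1112 on day 3 (32%, against 6.23%), with 65 lower (5.85%, against 8.27%), and 127 of 1016 on day 1 (12.5%, against 3.14%), with 72 lower (7.09%, against 5%). Of genes called lower on day 7, 807 of 1488 were lower on day 5 (54.2%, against 12.4%), 347 of 1262 on day 3 (27.5%, against 8.27%) and 134 of 1155 on day 1 (11.6%, against 5%). Each day has its own pair of libraries. The cell cycle median was 0.07 on day 1, -0.87 on day 3 and -1.18 on day 5, that of fibroblast matrix -0.11, 1.06 and 1.39, and that of visceral endoderm products 0.00, 0.00 and 0.02. The median of this last list was thus near 0 until day 7, although *Trf* stood at 0.810 and 10.8 on day 5. No floor was set on the earlier days. Some of its genes were near 0 FPKM in both libraries, such as *Ttr* (0.283 and 0.292) on day 3 and *Apoa4* (0.378 and 0.419) on day 5. A median near 0 there does not show equal levels.

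**Figure D3:**
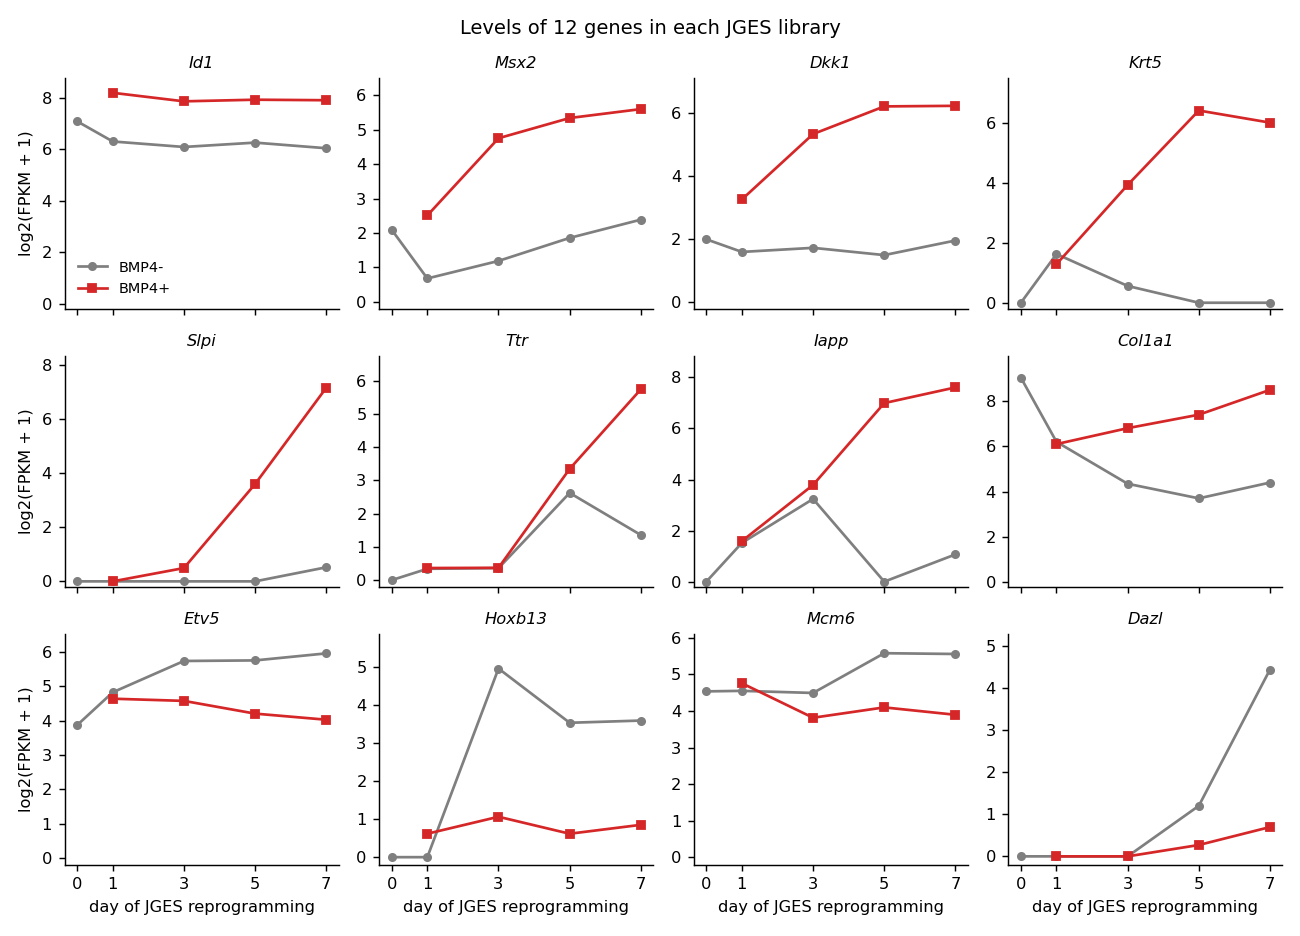
Level of 12 genes as log2(FPKM + 1) (y axis) in each JGES library by day (x axis), without BMP4 in gray circles (days 0 to 7) and with BMP4 in red squares (days 1 to 7), 1 library a point. *Id1* and *Msx2* differ from day 1, *Krt5* and *Hoxb13* from day 3, and *Dazl* rises without BMP4 between days 5 and 7.

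The response was then set beside the BMP4 response of other factor sets on day 7, which have libraries of their own and more reads. Of the genes called higher in JGES cells, 191 of 1115 were at least 1 higher in JGE cells (17.1%, against 3.66% of all genes) and 79 at least 1 lower (7.09%, against 4.36%), 74 of 1037 in JGEO cells (7.14%, against 1.71%) and 249 of 1066 in JGESO cells (23.4%, against 4.77%). Of the genes called lower, 89 of 1108 were lower in JGE cells (8.03%, against 4.36%), 55 of 1321 in JGEO cells (4.16%, against 1.5%), where 47 were at least 1 higher (3.56%, against 1.71%), and 181 of 1238 in JGESO cells (14.6%, against 3.07%). In each of these sets most genes called in JGES cells were not past 1 in the same direction. In JGEO cells, of the genes of at least 5 FPKM called lower in JGES cells, 25 of 919 were lower (2.72%, against 0.613% of all genes measured in both) and 36 higher (3.92%, against 1.56%). Whether the sets differ was not tested. The BMP-SMAD targets had a median of 1.39 in JGE, 0.34 in JGEO and 0.61 in JGESO cells. *Id1* had 48.8 and 188 FPKM in JGE cells, 81.1 and 60.1 in JGEO cells and 339 and 334 in JGESO cells. *Krt5* reached 89.6 FPKM in BMP4+ JGESO cells, from 10.3 without BMP4, but 1.47 in JGE and 0.725 in JGEO cells. *Ins2* was high with BMP4 in JGE cells as well (65.8 and 1049.8), and *Igfbp1* had 26.9 and 61.0 in JGESO cells. Fibroblast matrix had medians of -0.87, -0.42 and 0.53 in JGE, JGEO and JGESO cells, and *Col1a1* had 293 and 128 FPKM in JGE cells.

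The scRNA-seq of day 7 JGES cells, 1 sample with BMP4 (11335 cells, 269277477 UMIs) and 1 without (8685 cells, 123159447 UMIs), gave a second measurement in separate libraries. The samples shared 2 cell barcodes. No treatment of doublets is given in the sources used here and none was removed, so a cell type may hold some RNA of another. Some genes differed far more between these samples than in bulk, and a difference in how the samples were counted was not tested. UMIs were summed over cells and scaled to the total of the sample (CPM), with exact Poisson 95% intervals, which cover counting error only. The median difference of log2(CPM + 1) over 13360 genes was 0.47, so this comparison is shifted upward, with 23.8% of genes at least 1 higher and 5.97% lower. Of the 1458 genes called higher in bulk, 1100 were measured and 776 were also at least 1 higher (70.5%), while 6 were at least 1 lower. Of the 1958 called lower, 1201 were measured, 370 were also lower (30.8%) and 58 higher. *Slpi* had 0.796 CPM (0.646 to 0.970) without and 227 CPM (226 to 229) with BMP4, *Krt5* 0.0162 (0.00197 to 0.0587) and 34.1 (33.4 to 34.8), and *Ins2* 151 (149 to 153) and 6907 (6897 to 6916). *Pou5f1* had 259 (257 to 262) and 3.14 (2.93 to 3.36), *Trh* 55.9 and 1.94, *Fthl17c* 29.8 and 0.0706. The 12 largest rises were all higher in the single cells too. *Zscan4f* had 0.0487 CPM and 0 CPM, so its 44.0 FPKM has no counterpart there.

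**Figure D4:**
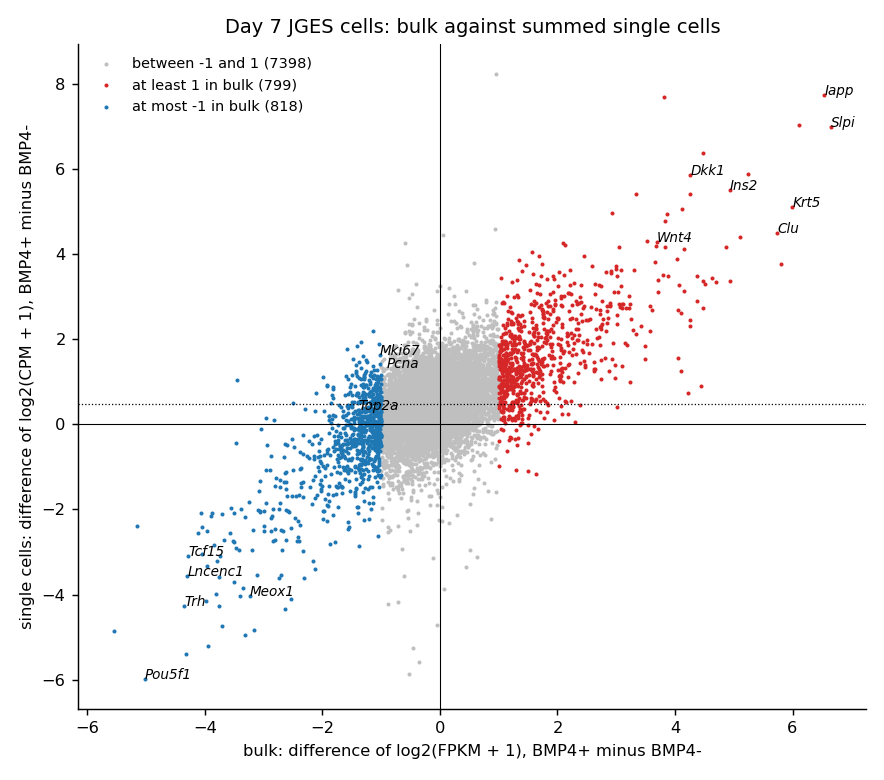
Difference between BMP4+ and BMP4- of log2(FPKM + 1) in bulk (x axis) and of log2(CPM + 1) in summed single cells (y axis) for genes with an FPKM of at least 5 and a CPM of at least 1 in either sample, with the scRNA-seq median of 0.47 as a dotted line. Of 799 genes called higher in bulk (red), 603 are at least 1 higher in single cells, while of the 818 called lower (blue) 217 are at least 1 lower and 46 at least 1 higher, with *Top2a* and *Mki67* among the 818.

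The median of the cell cycle list was -1.16 in bulk and 0.15 in the single cells, in both below that of all genes (-0.13 and 0.47). In the single cells 3 of 23 were higher and 2 lower, against 23.8% and 5.97% of all genes. *Mki67* had 46.1 and 22.2 FPKM but 33.7 and 106 CPM, and *Pcna* 149 and 79.1 FPKM but 46.3 and 117 CPM. Among genes of at least 5 FPKM, 46 of the 818 called lower in bulk were higher in the single cells (5.62%, against 25.6% of all genes), including *Mcm4*, *Kif11*, *Brca1* and *Dnmt1*, named after their values were seen, and 3 the reverse, *Sycp3*, *Egln3* and *Cox7a1*. By contrast the *Hox* and *Cdx* list had a median of -1.16 and the germline list of -1.16 in the single cells, and BMP-SMAD targets of 1.73, fibroblast matrix of 1.44, protease inhibitors and S100 of 2.35 and visceral endoderm products of 2.29.

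The authors' cell types show in which cells these genes had their highest level. With BMP4 the cells were labelled Intermediate state (7125), ParE (2372), Endothelial cells (1453) and Placenta-like (385), and without it Intermediate state (6211), Pluripotent cells (1825), Endothelial cells (507) and ParE (142). ParE is the label of the file. By elimination it is the cluster that the study describes as primitive endoderm-like cells. All 12 genes of the PrE list were highest in it in both samples. Of 1135 genes called higher in bulk with at least 1 CPM in some BMP4+ type, 689 had their highest level in the Intermediate state (60.7%), against 28.9% of all measured genes, and 148 in ParE (13%, against 24.4%). Of 1297 genes called lower, 852 had their highest level in the Pluripotent cells of the BMP4- sample (65.7%, against 28.8%). *Slpi* had 371 CPM in the Intermediate state with BMP4 and 15.8 in ParE, *Krt5* 54.4 and 3.60, *Iapp* 1699.8 and 177, and *Ibsp* 39.9 and 2.54. *Igfbp1* was the exception among the 12, at 0.764 and 88.8. Of the 14 visceral endoderm genes 13 were highest in ParE, such as *Spink1* (446 against 7.04 in the Intermediate state), and 1 in Endothelial cells, *Trf* (44.1). Of 21 fibroblast matrix genes 17 were highest in the Intermediate state, and of 17 endothelial genes 16 in Endothelial cells (the other, *Flt1*, had 247 in ParE and 60.4 in Endothelial cells). In the Placenta-like cells 17 of 21 simple epithelium genes were highest, with *Krt8* at 995 there and 359 in ParE. So were 8 of 14 trophoblast genes, with *Phlda2* at 3599 there and 144 in ParE. Without BMP4, 22 of 23 *Hox* and *Cdx* genes were highest in the Intermediate state, *Hoxb13* at 32.3, and 17 of 19 germline genes and 19 of 23 cell cycle genes in the Pluripotent cells.

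Within the Intermediate state alone, the largest of the types in each sample, several lists that stood higher in bulk had medians above that of all genes. It was 2.54 for protease inhibitors and S100, 2.35 for peptide hormones, 1.83 for BMP-SMAD targets, 1.67 for the keratinocyte list and 1.66 for fibroblast matrix, against 0.41 over 12917 genes. Other lists did not, with 0.30 for trophoblast, 0.28 for BMP antagonists and 0.01 for endothelium. It was -1.15 for *Hox* and *Cdx*, where 13 of 23 genes were lower. For germline and 2-cell genes it was -0.23, with 4 of 19 lower, and for the cell cycle list -0.39, with 4 of 23 lower and 1 higher. Over all genes in this type, 705 of 12917 were at least 1 lower and 3075 at least 1 higher. The germline median of the whole samples, -1.16, was thus larger in size than that within this type. Pluripotent cells, in which most germline genes were highest, are not among the labels of the BMP4+ sample, and their part in the difference was not tested.

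**Figure D5:**
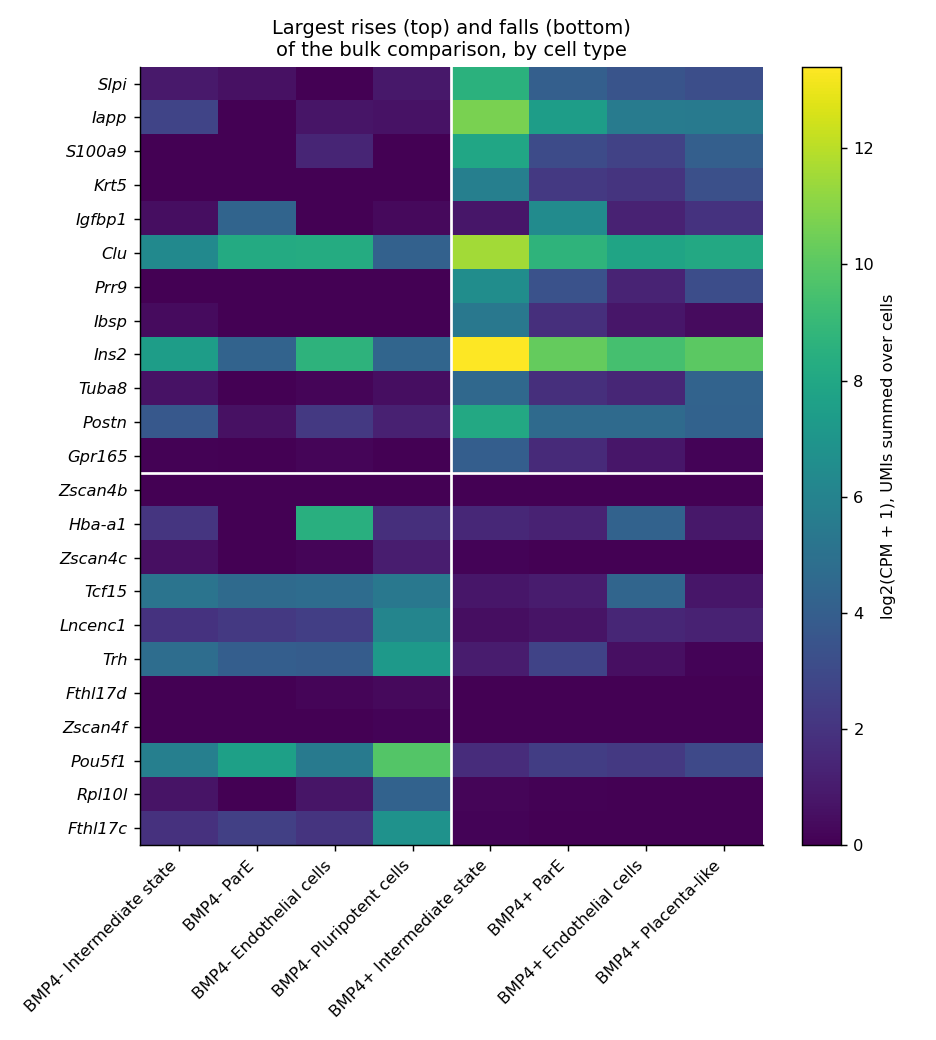
Level as log2(CPM + 1) (color) of the 12 largest rises and of 11 of the 12 largest falls of the bulk comparison (rows; *Fthl17b* has no row in the single-cell table) in each cell type of the BMP4- and BMP4+ samples (columns). All rises except *Igfbp1* are highest in the BMP4+ Intermediate state, and *Pou5f1*, *Trh*, *Lncenc1*, *Rpl10l* and *Fthl17c* are highest in the BMP4- Pluripotent cells.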

How the data were processed

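Bulk RNA-seq measured mRNA libraries of JGES cells with paired reads. Per the labels and the submitters' processing notes, the authors trimmed reads with Trim Galore 0.6.4, mapped them to mm10 with HISAT2 2.2.1 and computed with StringTie 2.2.1 the FPKM that they deposited. The scRNA-seq file holds UMI counts per gene and cell as deposited by the authors, with their cell types, from STARsolo on GENCODE vM21, and its 10749 columns of MEF and ESC, which match no sample here, were left aside. The annotation and strand use of the bulk counting are not given in the sources used here.

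From these, differences of log2(FPKM + 1) were computed with Python 3.11.15, numpy 2.4.6 and pandas 2.3.3 for genes of at least 1 FPKM in either library, and a gene was called at a difference of 1. UMI counts were summed per sample and cell type, with scipy 1.17.1 for the intervals (95%). Positions come from GENCODE vM21 (mm10). The text names the 12 largest rises and falls among named genes of at least 5 FPKM, and up to 6 members of each list by size of difference, besides members past 1 against their list and genes named as checks. *Alpl*, *Anxa1*, *Axin2*, *Bmp4*, *Ccnd1*, *Ccne1*, *Cdh1*, *Dlx3*, *Hnf4a*, *Lor*, *Spp1*, *Spry2*, *Wnt6*, *Id1*, *Id2*, *Top2a*, *Mki67*, *Pcna* and the untested *Acan*, *Col10a1* and *Trp63* were named after their values were seen. The members and lists were chosen with earlier results of these data known. The calling step was tested on simulated data. DNA accessibility and binding files were not used here. Alternatives were a pseudocount of 0.1, an FPKM of at least 5, no filter, a common median, a common sum, a second copy of both libraries and a limit of 20 estimated read pairs.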

Additional observations from a re-analysis of the deposited data

Results flagged for a closer look

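Fibroblast matrix genes stood higher with BMP4 in JGES cells on day 7 (median 1.83) and lower in JGE cells (median -0.87), opposite directions under the same treatment in libraries that share no control. *Col1a1* had 20.2 and 361 FPKM in JGES cells and 293 and 128 in JGE cells. The difference was not tested, since each set has 1 library a side.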

How the results depend on the processing

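The counts of genes at least 1 higher and at least 1 lower, 1458 and 1958, were 866 and 1018 with an FPKM of at least 5, 798 and 865 with at least 20 estimated read pairs in either library (chosen after seeing the data), and 2289 and 2902 with each library rescaled to a common sum. The counts stayed within 1.5 times the main values with a pseudocount of 0.1, no filter on low values, libraries scaled to a median ratio of 1, and the second copy of both libraries. Genes higher made up 42.7% of the calls and 50.1% with a common median. No called value changed sign under any of the alternatives run. The bone and cartilage median, 1.16, was 0.45 with no filter, and the keratinocyte median, 1.84, was 1.00 with no filter and with the limit on read pairs. The limit of 20 read pairs was estimated from transcript length, and the causes of these shifts were not tested beyond the number of genes each filter keeps. No paired analysis was possible because each condition has 1 library, and no library could be left out for the same reason. Low depth limits the calls of weakly expressed genes most.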

Other observations

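In the single cells, 25 of 9015 genes of at least 5 FPKM differed by 3 or more on the log2(CPM + 1) scale while they differed by less than 1 in bulk, and 11 of these were lower with BMP4. Among them were housekeeping genes. *Rps6*, a ribosomal protein gene, had 5760 CPM without and 318 CPM with BMP4, against 842 and 514 FPKM, and *Atp6v0c*, a proton pump subunit, had 2.18 and 956 CPM, against 211 and 407 FPKM. They were named after their values were seen. Whether both single-cell samples were counted with the same annotation was not tested, so these CPM differences may not be differences in expression.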
